A study of Mus musculus with 6 samples.

Results

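Matrix metalloproteinases (MMPs), their tissue inhibitors (TIMPs), the ADAMTS proteases with the related ADAMTS-like proteins, and the lysyl oxidases were examined in brown adipose tissue (BAT) of mice. The set was chosen by gene name. It holds every Mmp, Timp, Adamts, Adamtsl and Loxl gene with a number, together with Lox, which gave 56 of the 47729 genes in the deposited files: 23 MMPs, 4 TIMPs, 19 ADAMTS, 5 ADAMTS-like genes and 5 lysyl oxidases. Wild-type male C57BL/6J mice received a low-fat diet (LFD, n = 3) or a 45% high-fat diet (HFD, n = 3) for 4 weeks, from 6 to 10 weeks of age, and RNA of the interscapular BAT depleted of ribosomal RNA was sequenced. The sequenced mice had been picked to span the fat mass of their group, so they are not a random draw from it. Each mouse had between 17156991 and 21603487 rounded counts.

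These families remodel the extracellular matrix. MMPs are zinc proteases that are secreted or held at the cell surface and cut collagens, elastin and other matrix proteins, and TIMPs bind and block them. ADAMTS proteases cut proteoglycans such as aggrecan and versican or trim procollagens, while ADAMTS-like proteins lack the protease domain and sit in the fibrillin microfibrils. Lysyl oxidases act in the opposite direction and crosslink collagen and elastin fibers. In adipose tissue these enzymes come mostly from fibroblasts, progenitors and macrophages in the stroma, and the matrix is rebuilt when fat cells grow.

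The members of a gene cluster on chromosome 9 differed in direction. The collagenase gene Mmp13 and the macrophage elastase gene Mmp12 were higher in all 3 HFD-fed mice than in all 3 LFD-fed mice, with a log2 fold change (HFD over LFD) of 3.36 ± 0.69 (SE) and 2.28 ± 0.72. Their neighbor Mmp3, the gene of stromelysin, was lower in all 3 HFD-fed mice, with -2.51 ± 0.67. Timp2, Adamtsl1, Adamtsl4, Adamtsl5, Adamts12 and Adamts20 were also lower in every HFD-fed mouse, on the scale of log2 CPM (counts scaled to the library size, with TMM normalization). Lox, Loxl2, Loxl3 and Timp1 were highest in LFD mouse 3, and their fold changes turned direction without that mouse. No member passed the thresholds of the study, which asked for an adjusted p below 0.01 together with a log2 fold change beyond 1.5 in either direction, in edgeR's quasi-likelihood test.

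Of the 56 members, 48 had enough counts for the test. Mmp1a, Mmp1b, Mmp7 and Mmp20 had 0 counts in every mouse. Mmp10, Mmp21, Adamts8 and Adamts13 had at most 22 counts in any mouse and were not tested either. The edgeR test called 0 of 17668 genes (0.0%), and 0 of the 48 members, at the study's thresholds. The study itself applied them with another test, DESeq2, and reported genes in both directions. Adjusted p-values of the members ran from 0.173 to 0.999. At an unadjusted p under 0.05, 8 members were lower in HFD-fed mice, where 6.62% of all tested genes were, and 2 were higher, where 3.86% of all genes were. On log2 CPM, the diets did not overlap for 7 members that were lower (9.23% of all genes) and for 2 that were higher (6.72%). With the replicate block the counts at an unadjusted p under 0.05 were 6 lower (8.76% of all genes) and 3 higher (8.75%). In the fit without the block, the count on the higher side is near that of the whole table, and the count on the lower side is above it. On log2(TPM + 1), where the median gene was shifted downward, 5 members were lower without overlap (11.6% of all genes) and 2 were higher (1.65%). DESeq2, run without edgeR's filter on low counts, called 1.38% of its 29856 genes and 1 member, Mmp13 (adjusted p = 1.47e-05). Of its 51 members, 11 were lower (5.26% of all genes) and 2 higher (3.49%) at an unadjusted p under 0.05. These shares are over a larger set of genes than those of edgeR and are not directly comparable with them.

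The median log2 fold change was -0.52 over the 48 members and -0.05 over all tested genes, and 36 members had a negative and 12 a positive value. These counts moved with LFD mouse 3. When that mouse was left out, 21 of the 48 had a negative and 27 a positive value, and all 15 changes of sign were from negative to positive. The members without overlap then numbered 10 lower (18.1% of all genes) and 15 higher (16.8%), and those at an unadjusted p under 0.05 numbered 8 lower (9.55%) and 9 higher (7.7%). Without LFD mouse 1, 16 members were lower without overlap (17.6%) and 4 were higher (13.9%), and 13 were lower at an unadjusted p under 0.05 (8.27%). That last count was 4 without HFD mouse 2 (4.01% of all genes), 3 without HFD mouse 3 (3.89%) and 4 without LFD mouse 2 (4.47%). The higher members without overlap numbered 5 without HFD mouse 1 (13.3%) and 4 without LFD mouse 2 (9.96%). Groups of fewer mice overlap less often, for all genes as for the members.

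**Figure D1:**
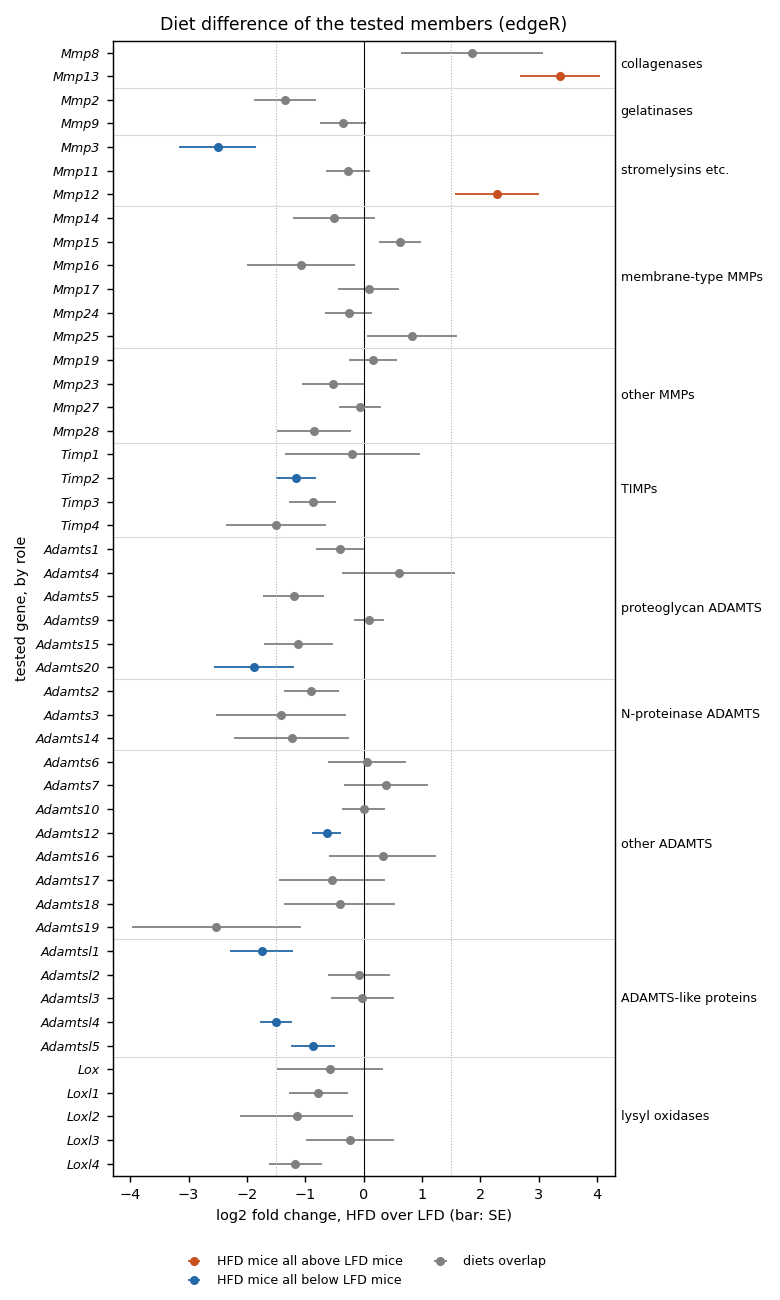
Log2 fold change of HFD over LFD (horizontal axis, edgeR, bars are the SE, n = 3 mice a diet) for the 48 tested members, ordered by role. Orange and blue points are genes whose log2 CPM did not overlap between the diets, grey points those that did, and dotted lines mark a fold of 1.5 on the log2 scale; Mmp13 and Mmp12 stand on the right, and the 7 blue points on the left lie in 5 role groups.

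The samples differed in more than these genes, and the same libraries carry the values below. Ucp1, the uncoupling protein that defines brown adipocytes, had 796 to 4021 TPM (abundance per transcript length, scaled to the same total in each mouse) in HFD-fed mice, 443 in LFD mouse 1, but 11.0 in LFD mouse 2 and 76.0 in LFD mouse 3. The summed TPM of 8 brown adipocyte markers was 1811 to 7237 in HFD-fed and 292 to 2025 in LFD-fed mice, and 2 of them, Ucp1 and Prdm16, were higher without overlap. All 10 skeletal muscle markers were lower in HFD-fed mice without overlap, with a summed TPM of 6.84 to 178 against 1771 to 11939. The 8 fibroblast and progenitor markers summed to 2787 to 4803 TPM in HFD-fed mice. In LFD mice 1, 2 and 3 they summed to 1774, 8998 and 26316 TPM. Col1a1 and Col3a1 held most of the sum in every mouse. Of the 8, Dcn and Pi16 were lower without overlap. Of the 10 macrophage markers, Adgre1, Fcgr1 and Cd68 were higher without overlap and 7 overlapped, at a summed TPM of 1983 to 4088 and 623 to 4556. Of 7 tested T and NK cell markers, 5 were higher without overlap, at 9.84 to 36.0 and 0.83 to 9.02 TPM. The summed TPM of the other lists overlapped, at 4430 to 6352 and 3492 to 13005 for adipocytes, 21.8 to 169 and 5.17 to 148 for neutrophils, 95.1 to 409 and 120 to 245 for endothelium, and 102 to 238 and 109 to 252 for smooth muscle and mural cells. Defining neutrophil genes Mpo, Elane and Ly6g were under 1.5 TPM in every mouse, and no marker was at 0 in all 6 mice. In whole tissue, fewer cells of a type and less RNA per cell cannot be told apart.

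The 10 MMP genes of a cluster lie side by side on chromosome 9 (GRCm38), from Mmp13 to Mmp7, between 7272514 and 7699585, a span of 427.1 kb. Mmp13 (ENSMUSG00000050578, 7272514 to 7283331), Mmp12 (ENSMUSG00000049723, 7344381 to 7369499) and Mmp3 (ENSMUSG00000043613, 7445822 to 7455975) are read from the plus strand. Mmp1b overlaps the end of Mmp12 on the minus strand and had 0 counts. Genes of this cluster are known to respond to AP-1, the Fos and Jun factor of growth and inflammatory signals, through a site close to the start. The RefSeq promoter sequences (GRCm38.p6) were therefore searched for the AP-1 letters TGAGTCA on both strands, the other strand reading TGACTCA, in the 250 bases before and the 50 after each start. The site was found in 7 of the 37 members with a promoter entry, against 5.95% of all 27025 genes in the table, and in 7 of the members' 40 promoters, against 5.2% of all 32851 promoters of that length. All 7 are in the cluster (Mmp13, Mmp12, Mmp1b, Mmp3, Mmp1a, Mmp10 and Mmp7), and none of the 27 other members with an entry had it. The letters TATAAA of the TATA box, searched in the same way, were found in 12 of the 37 members and in 15.7% of all genes; 9 of these members belong to the cluster. The 120 bases before the start are shown for the 3 cluster genes that separated the diets, in lower case with the AP-1 letters in capitals. For Mmp12, the bases shown lie before a downstream RefSeq start inside the gene. Whether the letters bear on the level of any of these genes was not tested. The bases come from chr9:7272394-7272513 (Mmp13), chr9:7347254-7347373 (Mmp12) and chr9:7445702-7445821 (Mmp3), all on the plus strand.
Mmp13: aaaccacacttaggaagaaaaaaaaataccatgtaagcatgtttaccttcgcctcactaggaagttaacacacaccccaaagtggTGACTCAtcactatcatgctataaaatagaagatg
Mmp12: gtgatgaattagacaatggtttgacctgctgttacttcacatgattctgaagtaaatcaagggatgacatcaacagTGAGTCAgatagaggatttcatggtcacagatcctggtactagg
Mmp3: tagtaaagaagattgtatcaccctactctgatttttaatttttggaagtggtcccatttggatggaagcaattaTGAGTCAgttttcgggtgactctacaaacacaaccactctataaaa

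The AP-1 letters began 35 bases before the start of Mmp13, 44 before the downstream start of Mmp12 (7347374) and 46 before the start of Mmp3. The RefSeq start of Mmp12 that lies near the gene start given above is at 7344397. Its window did not hold these letters. A match of letters is a description and not a measured binding site.

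Mmp13 encodes a collagenase that cuts fibrillar collagen. It had 1.63, 4.23 and 3.66 TPM in HFD mice 1 to 3 and 0.04, 0.39 and 0.77 TPM in LFD mice 1 to 3, or 93, 176 and 165 counts against 2, 14 and 24. Every HFD-fed mouse was above every LFD-fed mouse, at a low level in both diets. On the log2 scale the fold change was 3.36 ± 0.69 (SE; edgeR adjusted p = 0.177), and the exact two-sided permutation test gave the smallest p that 3 mice against 3 allow, 0.1. Fitted with the replicate block it was 3.58 (adjusted p = 0.069), and without LFD mouse 3 it was 4.05 (adjusted p = 0.059).

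Mmp12 encodes macrophage elastase, a protease known from tissue macrophages. Its level was 64.9, 68.9 and 37.2 TPM in HFD-fed mice and 0.84, 15.0 and 20.5 TPM in LFD-fed mice. The diets did not overlap, and LFD mouse 1 was far below the other mice. HFD over LFD gave a log2 fold change of 2.28 ± 0.72 (edgeR adjusted p = 0.346), and 1.80 without LFD mouse 1. The macrophage markers Cd68, Fcgr1 and Adgre1 moved in the same direction, with 12.7 TPM of Cd68 in LFD mouse 1 and 76.0 to 295 in the other mice, while Csf1r, Mrc1 and C1qa overlapped between the diets, and their part in the result was not tested.

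Mmp3, or stromelysin, cuts proteoglycans and activates other MMPs. It had 11.3, 5.64 and 4.62 TPM in HFD-fed mice and 24.5, 103 and 46.8 TPM in LFD-fed mice. All 3 HFD-fed mice were below all 3 LFD-fed mice, and LFD mouse 2 was the highest. The log2 fold change was -2.51 ± 0.67 (edgeR adjusted p = 0.264; DESeq2 adjusted p = 0.0102). Mmp3 was not one of the genes that were highest in LFD mouse 3, and its value was -2.73 without that mouse. RSEM divides reads that match several genes, and how reads were divided between Mmp3 and its close relative Mmp10, which had 0 to 16 counts, was not tested.

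Elsewhere in the cluster, Mmp8, the neutrophil collagenase, had 0.21, 2.5 and 4.73 TPM in HFD-fed and 0.05, 0.30 and 2.22 TPM in LFD-fed mice. Its values overlapped, with a log2 fold change of 1.86 ± 1.22 (edgeR adjusted p = 0.685) that became 3.82 without LFD mouse 3 (adjusted p = 0.196). Of the neutrophil markers, S100a8, S100a9, Csf3r and Ly6g were also highest in TPM in mouse 3 of each diet. S100a8 was at 58.4 TPM in HFD mouse 3 and 46.5 TPM in LFD mouse 3. It was at 8.80 and 6.66 TPM in HFD mice 1 and 2, not the order of Mmp8. Among LFD-fed mice, Mpo and Elane were instead highest in LFD mouse 2. The part of these markers in the result was not tested. Mmp10 was detected with 7, 11 and 16 counts in HFD-fed mice and 0, 0 and 6 in LFD-fed mice. Mmp27 differed by -0.06 ± 0.37.

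**Figure D2:**
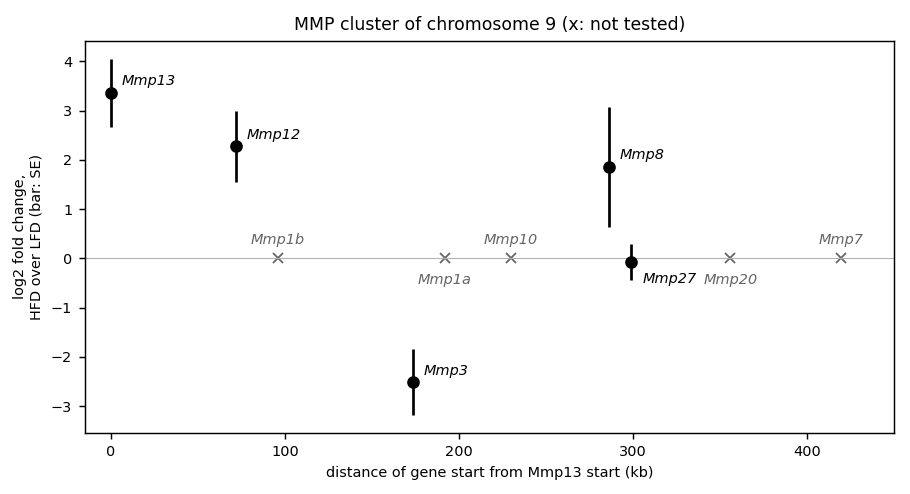
Log2 fold change of HFD over LFD (vertical axis, bars are the SE, n = 3 mice a diet) of the 5 tested MMP genes of chromosome 9, against the distance of each gene's start from that of Mmp13 in kb. Crosses mark the 5 genes that were not tested; Mmp13 (3.36) and Mmp12 (2.28) are above the zero line and Mmp3 (-2.51), 173 kb from Mmp13, is below it.

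The gelatinases cut denatured collagen and basement membrane collagen. Mmp2, the more abundant of the pair, had 33.7, 41.4 and 17.0 TPM in HFD-fed mice and 36.2, 115 and 176 TPM in LFD-fed mice. LFD mouse 1 lay within the range of the HFD-fed mice, and only LFD mice 2 and 3 were above it. Mmp2 had a log2 fold change of -1.35 ± 0.53 (edgeR adjusted p = 0.445). Mmp9 overlapped, at 3.03 to 7.36 TPM in HFD-fed and 4.72 to 9.28 TPM in LFD-fed mice.

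Membrane-type MMPs act at the cell surface, and Mmp14 is the main activator of the Mmp2 protein. Mmp14 was at 41.0, 51.1 and 57.9 TPM in HFD-fed mice and at 13.8, 61.8 and 228 TPM in LFD-fed mice. The LFD-fed mice spread over both sides of the HFD-fed mice. Its log2 fold change was -0.51 ± 0.71 (edgeR adjusted p = 0.889) and turned to 0.66 without LFD mouse 3. The other 5 membrane-type genes had means below 6 TPM in both diets and overlapped, with log2 fold changes of -1.07 (Mmp16) to 0.83 (Mmp25). Among the other MMPs, Mmp19 was the most abundant, at 29.7, 47.4 and 82.3 TPM in HFD-fed mice and 28.4, 39.0 and 107 TPM in LFD-fed mice. Its ranges overlapped almost fully, and its log2 fold change of 0.16 ± 0.41 (edgeR adjusted p = 0.949) had the other sign on the TPM scale.

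The 4 TIMPs made up 22.9% to 28.8% of the summed TPM of the 56 members in HFD-fed mice and 37.0%, 30.7% and 21.5% in LFD mice 1, 2 and 3. Timp2, which blocks MMPs and also takes part in the activation of Mmp2 by Mmp14, was the most abundant member of all. It had 88.7, 113 and 99.95 TPM in HFD-fed mice and 98.9, 294 and 297 TPM in LFD-fed mice. LFD mouse 1 was inside the HFD range in TPM and just outside it in log2 CPM, while LFD mice 2 and 3 were well above. The log2 fold change was -1.16 ± 0.34 (edgeR adjusted p = 0.316).

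The other TIMPs each followed a different order of mice. Timp1, the inhibitor known to rise with inflammation and wound repair, had 27.5, 77.2 and 105 TPM in HFD-fed mice and 4.53, 22.3 and 305 TPM in LFD-fed mice. LFD mice 1 and 2 were below every HFD-fed mouse, and LFD mouse 3 was above every other mouse. The log2 fold change was accordingly -0.20 ± 1.16 with all mice, 2.53 without LFD mouse 3 (edgeR adjusted p = 0.106) and 1.26 in the fit with the replicate block. Timp3, which binds to the matrix and also blocks ADAMTS proteases, was at 16.9 to 36.6 TPM in HFD-fed mice and 44.6 to 62.8 TPM in LFD-fed mice. The diets were apart in TPM and overlapped in log2 CPM, and the log2 fold change was -0.88 ± 0.40 (edgeR adjusted p = 0.509). Timp4 had 14.5, 7.65 and 2.90 TPM in LFD mice 1, 2 and 3, on both sides of a narrow HFD range of 3.34 to 4.03 TPM.

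The products of 7 ADAMTS genes cut proteoglycans. Adamts5, a main aggrecanase, had 16.3, 14.5 and 7.13 TPM in HFD-fed mice and 15.9, 45.0 and 62.2 TPM in LFD-fed mice. As for Mmp2, LFD mouse 1 matched the HFD-fed mice and the other LFD-fed mice were above, and the log2 fold change was -1.20 ± 0.52 (edgeR adjusted p = 0.494). Adamts20, a versican-cutting enzyme, had 0.07, 0.16 and 0.03 TPM against 0.31, 0.49 and 0.39 TPM. It did not overlap between the diets but rested on 4, 14 and 3 counts in HFD-fed and 21, 36 and 16 counts in LFD-fed mice, with a log2 fold change of -1.89 ± 0.68 (edgeR adjusted p = 0.409). Adamts4, the other main aggrecanase, was at 2.71, 4.01 and 6.88 TPM in HFD-fed mice and 0.26, 1.48 and 10.8 TPM in LFD-fed mice, the order of mice seen for Timp1. Its log2 fold change was 0.60 ± 0.97, and 2.57 without LFD mouse 3 (edgeR adjusted p = 0.099).

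Adamts2, Adamts3 and Adamts14 encode the N-proteinases that trim fibrillar procollagens. Adamts2 had 15.3, 18.0 and 16.8 TPM in HFD-fed mice and 14.6, 43.5 and 84.1 TPM in LFD-fed mice. The HFD-fed mice were close together and LFD mouse 1 was just below them. Adamts2 differed by -0.90 ± 0.47 on the log2 scale (edgeR adjusted p = 0.575). Adamts3 and Adamts14 were at 11.8 and 42.7 TPM in LFD mouse 3 and at no more than 2.36 and 6.29 TPM in the other mice.

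Adamts12 was the most abundant of the 9 remaining ADAMTS genes. Its level was 6.75, 14.1 and 12.9 TPM in HFD-fed mice and 9.83, 24.7 and 29.7 TPM in LFD-fed mice. The diets did not overlap in log2 CPM but did in TPM, with a log2 fold change of -0.64 ± 0.25 (edgeR adjusted p = 0.439). The other 7 tested genes overlapped and had log2 fold changes of -2.52 (Adamts19) to 0.38 (Adamts7); Adamts19 was at 16.1 TPM in LFD mouse 3 and at no more than 1.22 TPM in any other mouse.

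The ADAMTS-like genes held 3 of the 7 members that were lower without overlap in log2 CPM, where 9.23% of all tested genes were. A group of 5 genes is too small to set against that share. Adamtsl4, which binds fibrillin and is known from the fibers that hold the lens, had 3.16, 5.90 and 4.63 TPM in HFD-fed mice and 8.02, 19.1 and 17.1 TPM in LFD-fed mice. Each LFD-fed mouse, LFD mouse 1 included, was above each HFD-fed mouse on both scales. Adamtsl4 had the smallest edgeR p of all members, with a log2 fold change of -1.51 ± 0.28 (edgeR adjusted p = 0.173), and DESeq2 gave -1.49 (adjusted p = 9.38e-04), which missed the fold threshold. Adamtsl1, a secreted matrix protein, had 4.18, 5.65 and 2.07 TPM against 6.35, 22.5 and 29.0 TPM. It too kept the diets apart on both scales, with LFD mouse 1 close to HFD mouse 2 and a log2 fold change of -1.75 ± 0.54 (edgeR adjusted p = 0.335). Adamtsl5, a microfibril protein, had 4.73, 6.92 and 5.94 TPM against 6.45, 10.8 and 18.4 TPM. Its separation was present in log2 CPM only, and its log2 fold change was -0.87 ± 0.38 (edgeR adjusted p = 0.490). Adamtsl2 and Adamtsl3 overlapped, at -0.08 and -0.02.

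Lysyl oxidases made up 24.4% to 25.3% of the members' summed TPM in HFD-fed mice and 12.4%, 16.8% and 39.4% in LFD mice 1, 2 and 3, and all 5 overlapped between the diets in log2 CPM. Loxl2, which crosslinks collagen and is known from fibrosis, had 46.8, 83.2 and 68.5 TPM in HFD-fed mice and 16.3, 66.3 and 548 TPM in LFD-fed mice. LFD mouse 3 was 6.59 times the next highest mouse, and LFD mouse 1 was the lowest. Loxl2 differed by -1.15 ± 0.97 on the log2 scale (edgeR adjusted p = 0.779), and 0.87 without LFD mouse 3. Lox, the founding enzyme of the family, had the same shape, at 58.7, 67.5 and 55.1 TPM in HFD-fed mice and 13.0, 49.5 and 347 TPM in LFD-fed mice. The value of -0.58 ± 0.91 on the log2 scale became 1.22 without LFD mouse 3 (edgeR adjusted p = 0.247), and that of Loxl3 went from -0.23 ± 0.75 to 1.12. Loxl1, which acts on elastic fibers, was at 31.5 to 47.6 TPM in HFD-fed mice and 24.8, 70.2 and 195 TPM in LFD-fed mice, at -0.78 ± 0.51 with all mice and -0.03 without LFD mouse 3. Loxl4, the least abundant of the 5, had 1.62, 2.03 and 2.98 TPM in HFD-fed mice and 1.83, 8.12 and 11.1 TPM in LFD-fed mice. As for Loxl1, LFD mice 2 and 3 were both above the HFD-fed mice. The log2 fold change of Loxl4 was -1.17 ± 0.45 (edgeR adjusted p = 0.439).

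**Figure D3:**
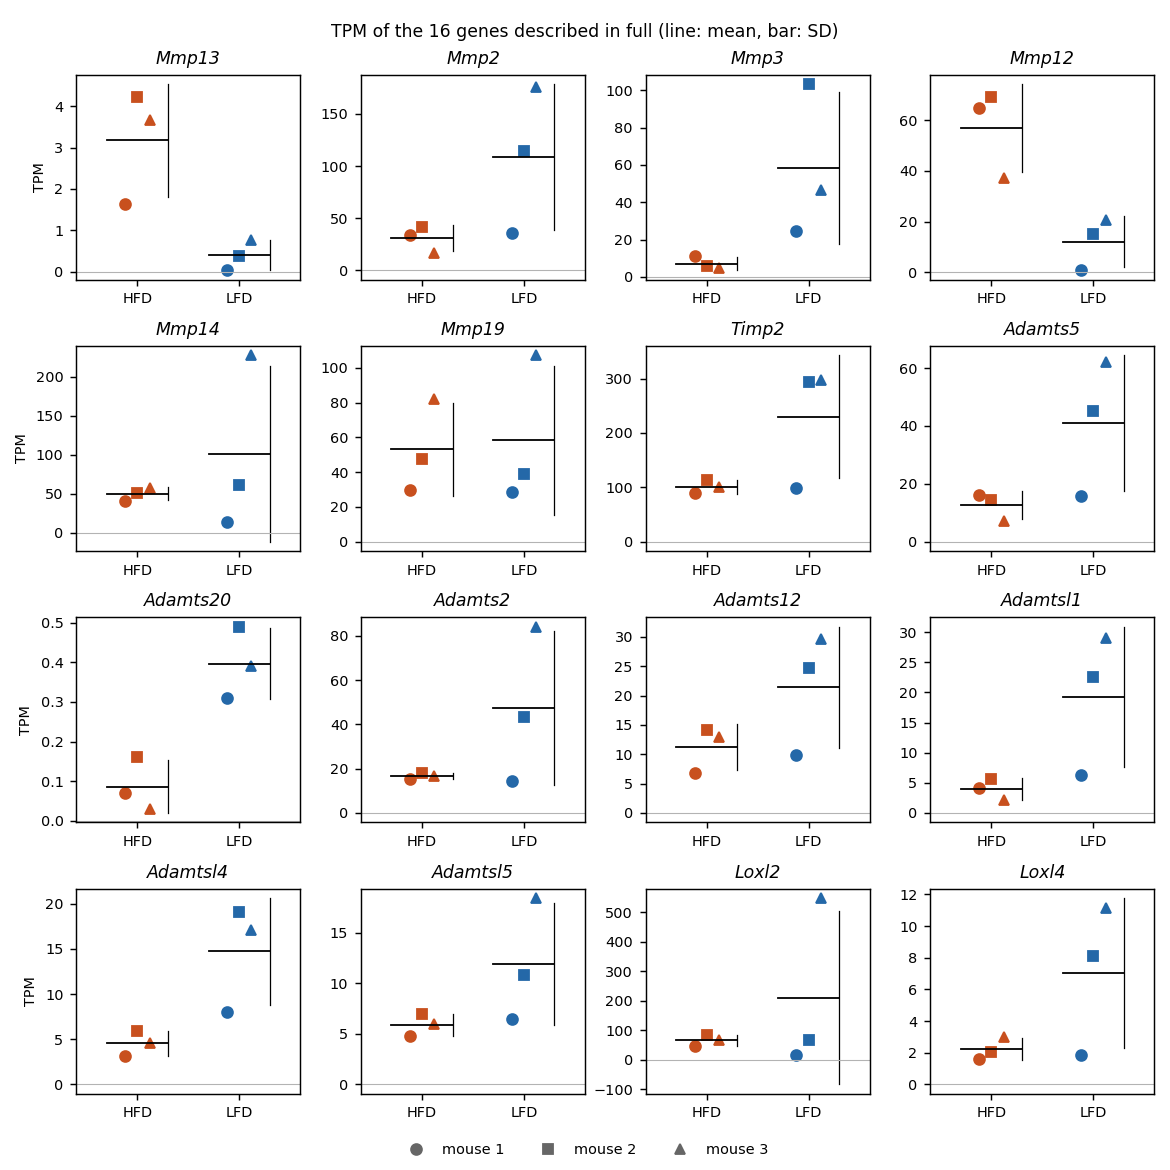
TPM (vertical axis, linear, a scale of its own in each panel) of the 16 members described with a value in each mouse, for HFD-fed (orange) and LFD-fed (blue) mice, with the mouse numbers as symbols, the mean as a horizontal line and the SD (n = 3) as a vertical bar. Mmp13, Mmp12, Mmp3, Adamts20, Adamtsl1 and Adamtsl4 have no overlap in TPM, and in Mmp14 and Loxl2 the LFD mean is set by LFD mouse 3.

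Summed over all members, TPM was 596, 872 and 842 in HFD-fed mice and 486, 1260 and 3017 in LFD mice 1, 2 and 3. The HFD-fed mice thus lay between LFD mouse 1 and the other LFD-fed mice. The sum of the lysyl oxidases was 192 ± 36.2 TPM in HFD-fed mice and 487 ± 613 in LFD-fed mice (mean ± SD, n = 3), and that of the membrane-type MMPs was 57.1 ± 11.2 and 107 ± 115. Both ratios changed direction without LFD mouse 3, to 0.49 and 0.42 on the log2 scale. The sum of the TIMPs was 203 ± 58.1 and 405 ± 235 TPM, and that of the ADAMTS-like genes 17.3 ± 5.24 and 48.8 ± 22.8. These ratios were below 0 on the log2 scale with each mouse left out in turn, at -1.35 to -0.48 and -1.84 to -1.21. So were those of the gelatinases, the proteoglycan-cleaving ADAMTS, the N-proteinases and the other ADAMTS. With LFD mice 2 and 3 both left out, the ratio was 0.18 for the TIMPs and -0.42 for the ADAMTS-like genes. The summed MMPs over the summed TIMPs were 1.59, 1.19 and 1.09 in HFD-fed and 0.844, 1.06 and 1.08 in LFD-fed mice. The HFD-fed mice were above the LFD-fed mice, but HFD mouse 3 and LFD mouse 3 nearly met. Mmp12 is part of the MMP sum, at 64.9, 68.9 and 37.2 TPM in HFD-fed and 0.84, 15.0 and 20.5 TPM in LFD-fed mice. Without this gene in the sum the diets overlap, so the separation is not a trait of the MMPs as a group.

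LFD mouse 3 had the highest log2 CPM of the 6 mice for 27 of the 48 members (56.2%), against 21.0% of all tested genes. For 13 members (27.1%) it exceeded every other mouse by more than 1 on that scale, against 2.46% of all genes. These 13 were Adamts19, Adamts14, Loxl2, Mmp16, Lox, Adamts3, Adamts18, Mmp14, Adamts15, Mmp23, Timp1, Loxl1 and Adamts1, at 13.2 times (Adamts19) to 2.41 times (Adamts1) the TPM of the next mouse. They include collagen crosslinkers, the procollagen N-proteinases Adamts3 and Adamts14, and Mmp14, the activator of Mmp2. The fibroblast genes Col1a1 and Col3a1 were high in the same mouse, at 5842 and 18377 TPM against at most 1166 and 6085 elsewhere. Fibrillin (Fbn1) was too, at 1204 against at most 286. Of the other fibroblast and progenitor markers, Lum, Dpt and Pdgfra were also highest there in log2 CPM. Dcn, Pi16 and Pdgfrb were not. What set this mouse apart was not tested. Mmp3, Timp2, Timp3, Adamtsl4, Adamts20, Mmp12 and Mmp13 are not among the 13, and their log2 fold changes had the same sign without it.

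**Figure D4:**
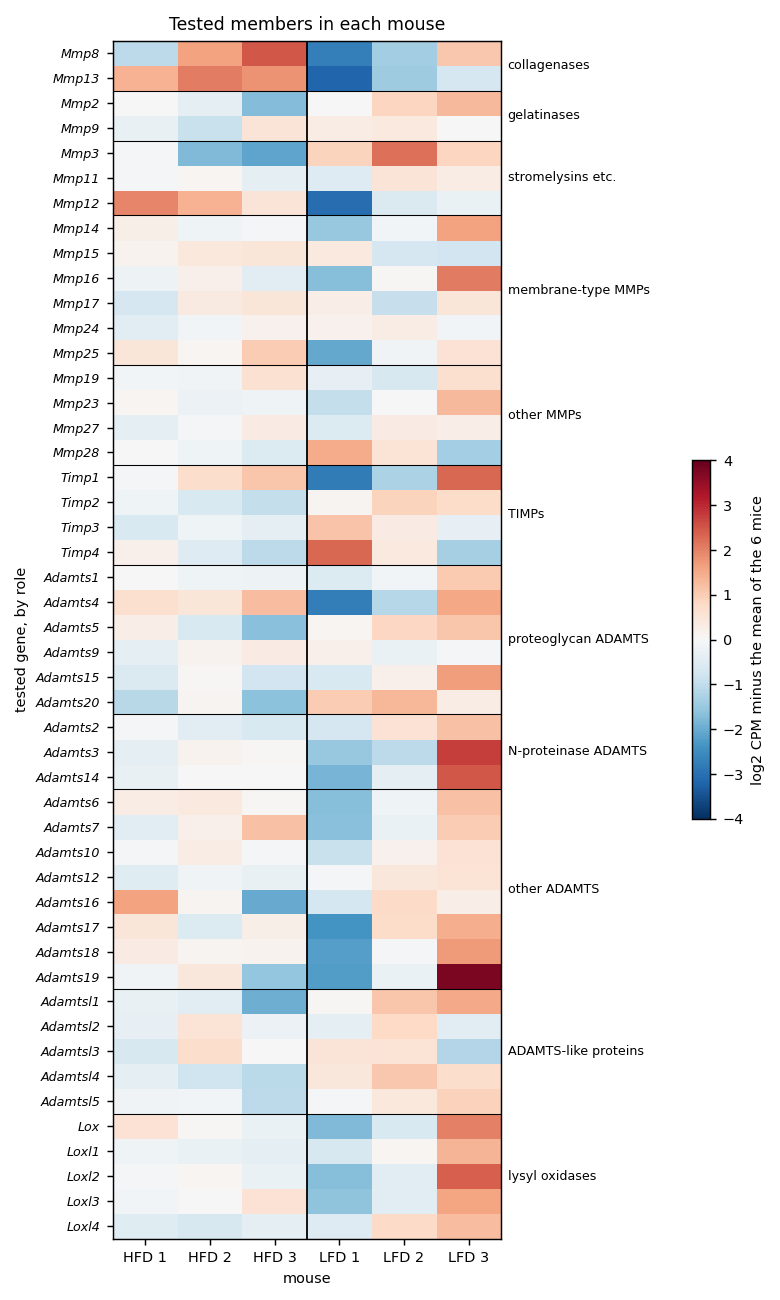
Log2 CPM of the 48 tested members in each mouse, minus the mean of the 6 mice for that gene (color scale in log2 units), ordered by role with HFD-fed mice on the left of the line. The column of LFD mouse 3 is the highest for 27 genes, among them all 5 lysyl oxidases, and LFD mouse 1 is low for many of the same genes.

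**Figure D5:**
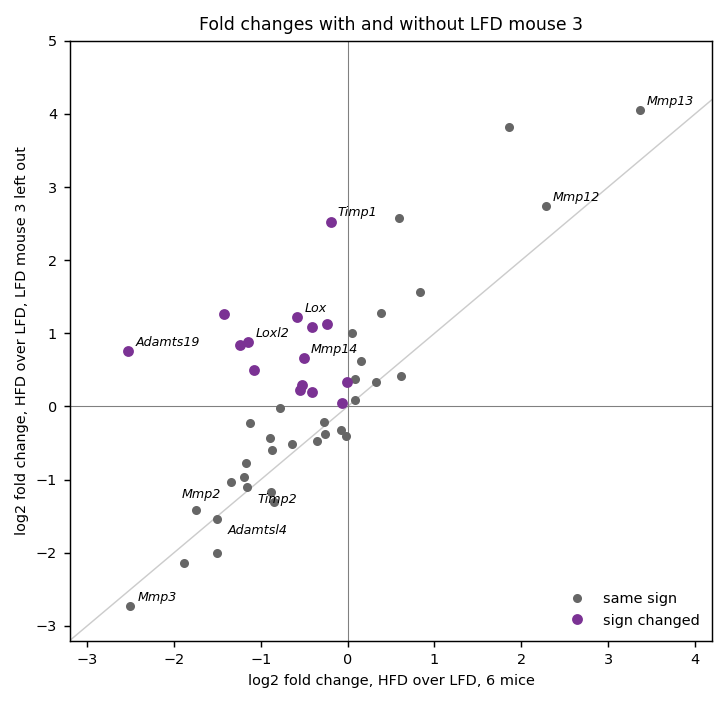
Log2 fold change of HFD over LFD with all 6 mice (horizontal axis) and with LFD mouse 3 left out (vertical axis) for the 48 tested members; the line marks equal values. The 15 purple points changed sign, from negative to positive, and Timp1 moved from -0.20 to 2.53, whereas Mmp13, Mmp12, Mmp3, Timp2 and Adamtsl4 are on the same side of 0 on both axes.

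Other genes of matrix turnover were taken from 6 lists of 41 genes, of which 37 were tested; Plg, Serpinf2, A2m and Acan had too few counts. The edgeR test called 0 of them at the study's thresholds. At an unadjusted p under 0.05, 4 were lower and 3 higher in HFD-fed mice (6.62% and 3.86% of all tested genes), while the fit with the replicate block gave 5 lower and 8 higher (8.76% and 8.75%). In the plasminogen system, 1 of 5 tested genes was lower, the protease inhibitor Serpine2 at -0.70 ± 0.24 (edgeR adjusted p = 0.390), and the smallest p on the higher side was that of the urokinase gene Plau, at 0.70 ± 0.31. Among 7 ADAM proteases, 1 was higher, Adam8, a surface protease of leukocytes, at 2.56 ± 1.04 (edgeR adjusted p = 0.464). Its TPM was 36.8, 112 and 165 in HFD-fed and 1.91, 10.1 and 52.9 in LFD-fed mice, and the diets did not overlap in log2 CPM. Adam19 was at -0.62 ± 0.46.

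The cathepsins degrade matrix after uptake into lysosomes or, for Ctsk and Ctss, also outside the cell. Of 4 tested, 1 was higher at an unadjusted p under 0.05, Ctsl at 0.80 ± 0.31 (edgeR adjusted p = 0.439), and 3 were higher by DESeq2 at the same threshold. Ctsl, Ctsb (0.55 ± 0.41) and Ctss (1.47 ± 0.73) were higher in every HFD-fed mouse in log2 CPM, without overlap, while Ctsk overlapped, at -0.58 ± 0.47. Among 4 tested inhibitors and activators, Reck, a membrane-anchored inhibitor of MMPs, was lower at -1.65 ± 0.45 (edgeR adjusted p = 0.272). Reck had 1.33, 2.17 and 1.18 TPM in HFD-fed and 2.13, 7.40 and 13.4 TPM in LFD-fed mice and did not overlap in log2 CPM. Bsg, a surface protein known to induce MMPs, was higher at 1.12 ± 0.45 (edgeR adjusted p = 0.464), with values that overlapped.

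Of 10 genes of procollagen processing, 1 was lower. This was Pcolce2, an enhancer of procollagen C-terminal cleavage, at -2.13 ± 0.59 (edgeR adjusted p = 0.274), with 5.09, 6.66 and 1.97 TPM in HFD-fed and 18.6, 37.8 and 19.3 TPM in LFD-fed mice, and Plod1 was at 0.37 ± 0.29. Of 7 tested genes of elastic fibers and proteoglycans, all of which had a negative log2 fold change, 1 was lower at an unadjusted p under 0.05. It was decorin (Dcn), a small proteoglycan of collagen fibrils, at -1.39 ± 0.37 (edgeR adjusted p = 0.266), with 171, 281 and 156 TPM in HFD-fed and 357, 801 and 844 TPM in LFD-fed mice. Fbln5 was also lower without overlap in log2 CPM. Fbn1, Vcan, Efemp2 and Comp, however, were lowest in LFD mouse 1 and highest in LFD mouse 3. Fbn1 had 92.9 to 195 TPM in HFD-fed mice and 45.6, 286 and 1204 TPM in LFD mice 1, 2 and 3. The signs of these genes without LFD mouse 3 are not given here. Dcn also stands in the fibroblast marker list.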

How the data were processed

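BAT RNA of 3 HFD-fed and 3 LFD-fed mice had been sequenced in single-end reads. According to the study's methods and the labels, the authors trimmed adapters with Trimmomatic 0.36 and quantified genes with RSEM 1.3.0 on GRCm38.p4 with Ensembl annotation. The strand setting is not given in the sources used here. The authors deposited expected counts, which are not normalized and divide a read that matches several genes, and TPM values, which are expected counts per effective length scaled to a fixed total in each mouse. The deposited gene lengths are in bases.

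Expected counts were rounded to whole numbers, with 17156991 to 21603487 per mouse, and 17668 genes passed edgeR's filter on low counts. Genes were compared in R 4.3.3 with edgeR 4.0.16 (quasi-likelihood test, TMM, no covariate, Benjamini-Hochberg adjustment over all tested genes), with the study's thresholds for a call, an adjusted p below 0.01 and a log2 fold change beyond 1.5 in either direction. The study used DESeq2 1.10.1; DESeq2 1.42.0 was an alternative. Log2 CPM used a prior count of 2. Levels of different genes are compared in TPM, and sums over a role have no test. Single values were compared by an exact two-sided permutation test over the 20 splits of 6 mice, whose smallest p is 0.1. On log2(TPM + 1) the median tested gene differed by -0.18 between diets, against 0.00 in log2 CPM, and 11.6% of genes were lower and 1.65% higher without overlap.

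The deviations of same-numbered mice from their diet means correlated at r = 0.229 to 0.522 across genes, although no source says what the number marks. Each of these r passed the limit that the plan had set for treating the number as a pair. The fit without the number, which is the study's design, is nevertheless the one reported. The fit with it as a block is given beside it for the counts and for a few members. No library was a repeat of another of its diet (chi-square per degree of freedom 71.7 to 558).

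The members and lists were chosen with earlier results of these data known. Values in each mouse are given for the 12 members with the smallest p and for the most abundant of each role, 16 in all, and for each further list the smallest p in each direction; Timp1, Timp3, Timp4, Lox, Loxl1, Loxl3, Mmp8, Mmp9, Mmp10 and Adamts4 were named after their values were seen. Positions come from GENCODE M21 and promoters from RefSeq (GRCm38.p6). Protein sequences were not used here. Alternatives covered the scaling, the filter, the block, mitochondrially encoded genes, each mouse left out and, added after seeing the data, LFD mice 2 and 3 both left out and the TPM scale.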

Additional observations from a re-analysis of the deposited data

How the results depend on the processing

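No member was called by edgeR under any filter, scaling, block or left-out mouse tried, and DESeq2 called 411 genes, 1 of them a member (Mmp13, 3.39). Of 16 of the 25 named members the sign held in every alternative.

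With a minimum of 10 counts in every mouse, 1 of 39 members was higher at an unadjusted p under 0.05 (3.51% of all genes), and 4 were lower (9.07%) and 1 higher (6.19%) without overlap. With LFD mice 2 and 3 both left out, 4 of 49 members were lower (12.2% of all genes) and 19 higher (12.6%) at an unadjusted p under 0.05, and 11 were lower (37.3%) and 28 higher (37.3%) without overlap; LFD mouse 1 alone then stood for its diet and was assumed to vary like the HFD-fed mice. With each mouse left out in turn, members at an unadjusted p under 0.05 numbered 3 to 13 lower (3.89% to 9.55% of all genes) and 2 to 9 higher (2.17% to 7.70%), and those without overlap 7 to 16 lower (11.5% to 18.1%) and 2 to 15 higher (8.05% to 16.8%).

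The log2 ratio of summed TPM with LFD mice 2 and 3 both left out was 5.97 for collagenases, -0.20 for gelatinases, 1.33 for the stromelysin group, 1.6 for membrane-type MMPs, 0.40 for other MMPs, 0.18 for TIMPs, 0.44 for proteoglycan-cleaving ADAMTS, 0.55 for N-proteinases, 0.92 for other ADAMTS, -0.42 for ADAMTS-like genes and 1.67 for lysyl oxidases. With each mouse left out in turn, these ratios ran from -1.87 to 0.49 for lysyl oxidases, -1.41 to 0.42 for membrane-type MMPs, -0.80 to 0.10 for other MMPs, -0.55 to 0.42 for the stromelysin group, 1.62 to 3.86 for collagenases, -2.11 to -1.21 for gelatinases, -1.35 to -0.48 for TIMPs, -1.42 to -0.34 for proteoglycan-cleaving ADAMTS, -2.02 to -0.50 for N-proteinases, -1.18 to -0.11 for other ADAMTS and -1.84 to -1.21 for ADAMTS-like genes.

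Signs turned, with the cause not tested. With LFD mice 2 and 3 both left out, the values were 0.31 for Adamts2, 1.91 for Lox, 0.37 for Loxl1, 1.62 for Loxl2, 1.79 for Loxl3, 0.0070 for Loxl4, 1.51 for Mmp14 and 3.48 for Timp1. With the replicate block they were 0.31 for Lox, 0.32 for Loxl3, 0.0015 for Mmp14 and 1.26 for Timp1. With each mouse left out in turn, they ran from -1.10 to 1.22 for Lox, -1.68 to 0.87 for Loxl2, -0.72 to 1.12 for Loxl3, -0.98 to 0.66 for Mmp14, -0.77 to 2.53 for Timp1 and -0.13 to 0.62 for Mmp19. LFD mouse 3 turned the first 5 of these, HFD mouse 1 also turned Timp1 (0.068), and HFD mouse 3 and LFD mouse 2 turned Mmp19 (-0.13 and -0.084). On log2(TPM + 1) Mmp19 was at -0.013 and Timp1 at 0.86.

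With the replicate block, 3094 genes passed an unadjusted p under 0.05 in place of 1851. Of the other genes of matrix turnover, 8 were then higher (8.75% of all genes), against 3 without it (3.86%) and 7 by DESeq2 (3.49%). The block brought 184 genes below an adjusted p of 0.05, where there were 0 without it, and 0 genes past the study's thresholds in either fit. The members at an unadjusted p under 0.05 went from 8 to 6 lower, where all genes went from 6.62% to 8.76%. On the higher side they went from 2 to 3, where all genes went from 3.86% to 8.75%. The r of same-numbered mice averaged 0.416 over all tested genes and 0.047 over the members alone. Over the 48 members it ran from -0.113 to 0.200, and from -0.334 to 0.406 for the other pairs of mice. With so wide a spread, the members alone cannot decide whether the numbers pair the mice. Counting error adds to the spread between mice for members with few counts, such as Mmp13 and Adamts20.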
